A study of Mus musculus with 2 samples.

Results

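The microRNA-29 (miR-29) family was examined in the muscle wall (tunica muscularis) of the mouse jejunum with and without the maintenance DNA methyltransferase *Dnmt1*. Its members were picked by name, in a choice made with earlier results of these data known. Every mature entry of miR-29a, miR-29b and miR-29c, both arms and all copies, gave 7 of 1080 mature entries among 1147 entries in all. They were mmu-miR-29a-3p, mmu-miR-29b-3p, mmu-miR-29c-3p, mmu-miR-29a-5p, mmu-miR-29b-1-5p, mmu-miR-29b-2-5p and mmu-miR-29c-5p. All 7 were above 0 in both libraries, and all 7 had a mean of both libraries of at least 10.

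Small RNA was sequenced from jejunum smooth muscle of C57BL/6 mice at 15 days of age, with 1 library for *Dnmt1*-WT and 1 for *Dnmt1*-KO. The labels give both samples the same strain, a smMHC Cre-eGFP transgenic line (Myh11-cre,-EGFP) with Dnmt1lox/lox. As the study describes the mice, the *Myh11* promoter drives *Cre* and eGFP in smooth muscle cells, the *Dnmt1*-KO mice have the floxed *Dnmt1* deleted there, and the *Dnmt1*-WT littermates carry the same transgene with *Dnmt1* intact. The Dnmt1lox/lox in the strain label of the WT sample conflicts with that description, and the conflict was not resolved. By this design the deletion is meant for smooth muscle cells and not for the other cells of the wall, whose *Dnmt1* was not measured here. A free-text field of both samples names the mutant genotype, against the title and genotype of the WT sample, and it was not followed. The methods list males and females of both genotypes, and do not say whether RNA was pooled. The deletion itself was not checked here, since *Dnmt1* messenger RNA is not part of small RNA data.

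Deposited values are reads multiplied by a factor per library close to 1, with a total of 5741906 for the *Dnmt1*-WT library and 4754677 for the *Dnmt1*-KO library. The variation from animal to animal is unknown with 1 library per genotype, so no test was run, and every comparison is between these 2 libraries. Intervals are exact 95% intervals of counting error only, since PCR copies of a molecule could not be told from separate molecules. The labelled tissue was checked against 8 smooth muscle miRNAs, among them miR-143-3p, miR-145a-5p and miR-133a-3p. All 8 were on the table and together took 38.6% of the WT library and 30.4% of the KO library.

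A miRNA guides the silencing complex to messenger RNAs that pair with its seed, the bases 2 to 8 at its 5′ end, and so lowers their translation and stability. The miR-29 family is known for targeting the de novo DNA methyltransferases, enzymes of DNA demethylation, and the collagens and elastin of the extracellular matrix, and it is known to be low in fibrotic tissue. Its hairpins are transcribed in pairs from separate clusters, miR-29a with miR-29b-1 and miR-29b-2 with miR-29c.

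The 3p products are shown first because their shared seed, in capitals, is what makes them a family. Sequences are from RefSeq with build GRCm38.p6, in which all 7 members were found.
mmu-miR-29a-3p: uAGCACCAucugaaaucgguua
mmu-miR-29c-3p: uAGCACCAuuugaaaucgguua
mmu-miR-29b-3p: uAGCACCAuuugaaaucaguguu

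Positions are counted from 1 at the 5′ end of the product named first. mmu-miR-29a-3p and mmu-miR-29c-3p differ at 1 base, C10U, outside the seed. mmu-miR-29b-3p differs from mmu-miR-29c-3p by G18A, U21G and A22U and is 1 base longer. Of the 918 mature entries on the table with a sequence, only these 3 carry the seed AGCACCA. A further entry, miR-3102-3p, shares bases 2 to 7 but not base 8, and it was at 50.1 in WT and 66.8 in KO, a ratio of 1.33.

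The 5p products are the opposite strands of the same hairpins, and they are shown because they tell the copies apart. Capitals again mark bases 2 to 8, which differ among all 4.
mmu-miR-29a-5p: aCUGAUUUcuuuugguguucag
mmu-miR-29b-1-5p: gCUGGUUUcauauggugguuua
mmu-miR-29b-2-5p: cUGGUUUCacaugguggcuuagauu
mmu-miR-29c-5p: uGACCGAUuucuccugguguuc

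The 4 hairpins follow with both mature products in capitals, because the position of the products decides which reads can be given to which cluster. The 29b-3p product is the same in Mir29b-1 and Mir29b-2, so a read of it cannot be assigned to either, whereas the 5p products can.
Mir29a: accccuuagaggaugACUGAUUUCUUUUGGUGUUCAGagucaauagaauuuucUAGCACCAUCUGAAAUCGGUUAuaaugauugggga
Mir29b-1: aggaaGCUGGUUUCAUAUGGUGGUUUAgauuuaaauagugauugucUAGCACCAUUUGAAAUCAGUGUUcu
Mir29b-2: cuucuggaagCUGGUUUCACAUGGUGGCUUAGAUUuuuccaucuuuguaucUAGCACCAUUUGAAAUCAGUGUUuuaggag
Mir29c: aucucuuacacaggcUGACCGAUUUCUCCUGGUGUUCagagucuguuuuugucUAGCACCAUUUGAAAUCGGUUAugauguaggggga

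On GRCm38, Mir29a lies at chr6:31062660-31062747 and Mir29b-1 at chr6:31063023-31063093, both on the minus strand, with 275 bases between them. Mir29a overlaps no other annotated gene, and Mir29b-1 overlaps the long noncoding RNA *Gm27019* by 2 bases. Mir29b-2 lies at chr1:195037040-195037120 and Mir29c at chr1:195037547-195037634, both on the plus strand, with 426 bases between them. Both lie in an exon of the noncoding transcript *A330023F24Rik* on the same strand, and antisense to an exon of 1 transcript of *Cd46*, a complement regulator.

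The seed pairs with the letters TGGTGCT in a messenger RNA, and these letters were looked for on the sense strand of the 3′ untranslated regions (UTRs) of 16 genes of the family's known target groups. Among 20944 mouse protein-coding genes, 13.1% hold the letters in the longest annotated 3′ UTR. Long UTRs hold them more often, so each gene was set beside UTRs within 20% of its own length. *Dnmt3a*, a de novo methyltransferase, held 5 matches in 6696 bases, where 46% of UTRs of like length hold at least 1. *Dnmt3b*, the other de novo enzyme, held 1 match in 1331 bases (11.9% of like length). *Dnmt1* held none in 312 bases (3.57%), and *Dnmt3l*, a cofactor of the de novo enzymes, none in 273 bases (3.37%).

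All 4 demethylation genes held at least 1 match. The dioxygenases *Tet1*, *Tet2* and *Tet3*, which oxidise methylated cytosine, held 7, 5 and 8, and the glycosylase *Tdg*, which removes the oxidised base, held 3. UTRs of like length held at least 1 in 51.2%, 26.5%, 42.5% and 18.6%. Among 8 matrix genes, 7 held a match: *Col5a1* 4, *Eln*, which encodes elastin, 3, *Col4a2* 2, *Fbn1*, which encodes fibrillin, 2, and *Col1a1*, *Col3a1* and *Col4a1* 1 each. *Col1a2* held none in 882 bases. The shares of like length ran from 9.12% for *Col1a2* to 22.9% for *Col5a1*. A match describes letters in a window and not a working site, and no match says only that these letters are not there. The messenger RNAs were not analysed here.

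For 1 match in each of 6 of these genes, 23 bases of the UTR are shown with the seed match in capitals. Where a gene has a match followed by an A, which is opposite base 1 of the miRNA, the one nearest the stop codon is given, and otherwise its only match.
Dnmt3a, chr12:3911390-3911412, plus strand: cccaggggaggtagcTGGTGCTa
Dnmt3b, chr2:153686612-153686634, plus strand: tagagtagcccggcaTGGTGCTc
Tet3, chr6:83364336-83364358, minus strand: aaatagtctaataaaTGGTGCTa
Col1a1, chr11:94952523-94952545, plus strand: gtgggaaggaatttcTGGTGCTa
Col3a1, chr1:45348967-45348989, plus strand: ttcaaaatgtctcaaTGGTGCTa
Eln, chr5:134703736-134703758, minus strand: cgacctcatcaacgtTGGTGCTa

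The first question was how much of the family each library held. On the deposited scale the sum of the 7 members was 3726 for *Dnmt1*-WT and 1807 for *Dnmt1*-KO, a KO/WT ratio of 0.485 (0.458 to 0.513). As a share of all reads the family was 0.0649% (0.0628 to 0.0670%) in WT and 0.0380% (0.0363 to 0.0398%) in KO. All 7 members were lower in the KO library, and they were lower under each of the 4 scalings described below. In a bulk sample, fewer cells of a type and less RNA per cell cannot be told apart.

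mmu-miR-29a-3p, the main product of the family, was at 3072.2 in WT and 1531.2 in KO. Its ratio was 0.498 (0.469 to 0.530), so the depth did not place it on a side of 2-fold. mmu-miR-29c-3p, which differs from it at the single base given above, was at 379.6 in WT and 154.1 in KO. Its ratio of 0.406 (0.335 to 0.491) was the only 1 of the 7 whose whole interval lay below 0.5 on the deposited scale, and under the 3 other scalings its upper limit was 0.594, 0.553 and 0.503. mmu-miR-29b-3p, made by a hairpin of each cluster, was at 150.4 in WT and 71.8 in KO, a ratio of 0.477 (0.355 to 0.636). The order of the 3p levels was the same in both libraries, and the counting intervals of neighbours in that order did not overlap in either. Levels of different miRNAs in 1 library also depend on how well each is ligated and copied, which was not tested.

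**Figure D1:**
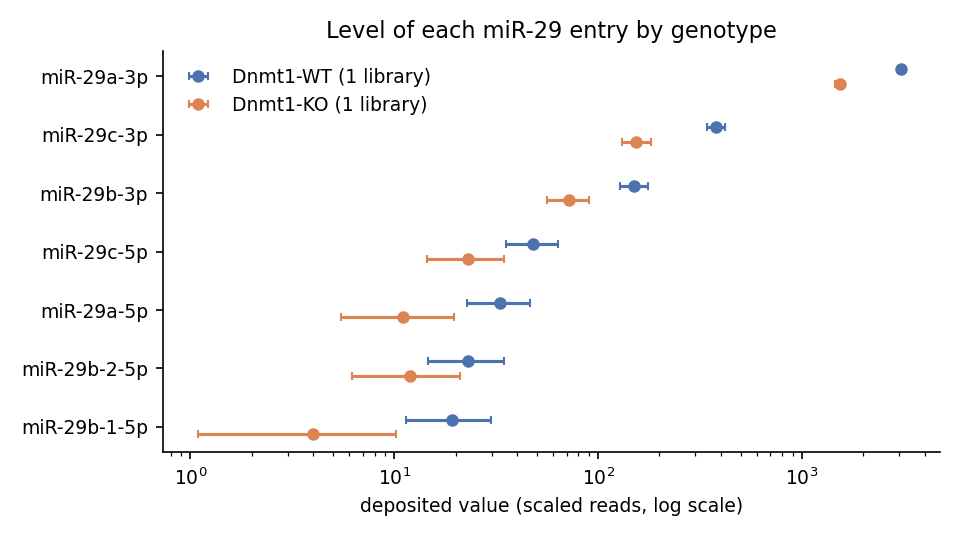
The horizontal log axis gives the deposited value of each miR-29 entry, with points for the single Dnmt1-WT and Dnmt1-KO library and bars for exact 95% Poisson intervals. Each KO point lies to the left of its WT point, with miR-29a-3p at 3072.2 and 1531.2, while the bars of miR-29b-2-5p, at 23.1 and 12.0, overlap.

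The 5p products were rarer and their ratios less precise. mmu-miR-29c-5p was at 48.1 in WT and 22.9 in KO, a ratio of 0.476 (0.277 to 0.799). mmu-miR-29a-5p was at 33.1 and 11.0, a ratio of 0.332 (0.151 to 0.672). The copies of miR-29b gave the highest and the lowest ratio of the family. mmu-miR-29b-2-5p, from the chromosome 1 copy, was at 23.1 in WT and 12.0 in KO, a ratio of 0.519 (0.235 to 1.09) whose interval includes 1. mmu-miR-29b-1-5p, from the chromosome 6 copy, was at 19.1 and 4.0, a ratio of 0.209 (0.0518 to 0.630). The quotient of these ratios, 2.48, had an interval from 0.607 to 12.1, so a difference between the copies was not detectable at this depth. Of the 5p reads of both copies, miR-29b-2 gave 23 of 42 in WT (54.8%, 38.7 to 70.2%) and 12 of 16 in KO (75%, 47.6 to 92.7%).

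The next comparison was by cluster, leaving out mmu-miR-29b-3p because both clusters make it. The products of the miR-29a/29b-1 cluster on chromosome 6 summed to 3124.4 in WT and 1546.2 in KO, a ratio of 0.495 (0.465 to 0.526). Those of the miR-29b-2/29c cluster on chromosome 1 summed to 450.8 and 189.0, a ratio of 0.419 (0.352 to 0.499). Both clusters were thus lower in the KO library. The quotient of the cluster ratios, which no scaling between the libraries changes, was 0.847 (0.704 to 1.02), so counting error alone covers a quotient of 1. The main products alone, mmu-miR-29c-3p over mmu-miR-29a-3p, gave 0.815 with an interval from 0.665 to 0.996, just below 1. The 5p products alone gave 1.71 (0.807 to 3.73), on the other side of 1 with an interval that includes it.

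The reads of mmu-miR-29a-3p and mmu-miR-29c-3p bear on that quotient. Dividing the deposited values by the factor of each library gave 3063.5 and 378.5 reads in WT and 1535.5 and 154.5 in KO. Each ends in a fraction, while the sums of both, 3442.0 and 1690.0, are whole within 0.06. The other 5 members came out whole within the same tolerance. How many reads were divided between these nearly identical products is not shown by the values.

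**Figure D2:**
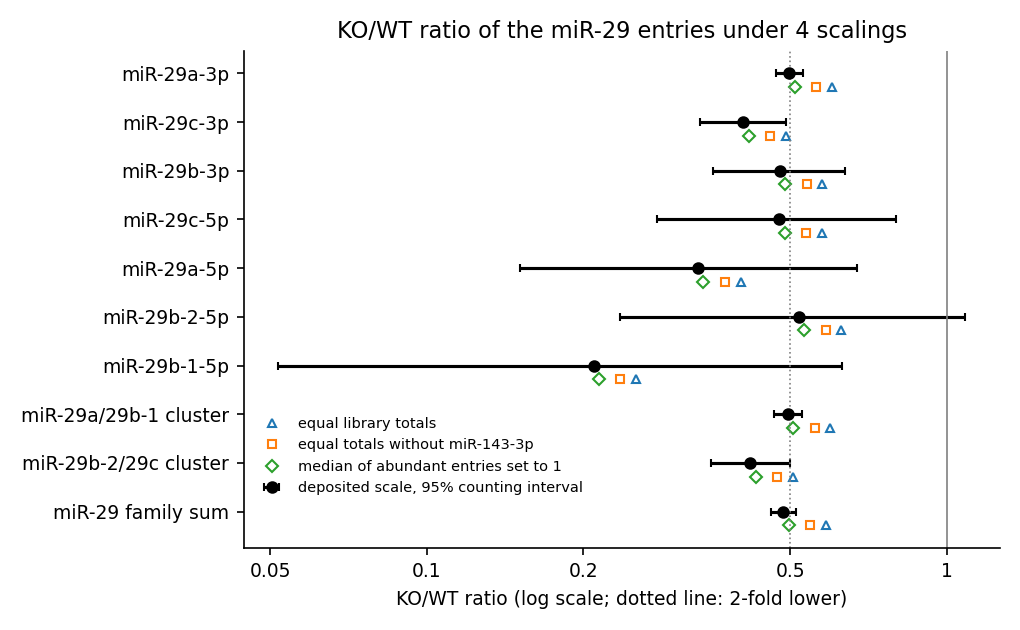
The horizontal log axis gives the KO/WT ratio of the 7 entries, both clusters and the family sum, with filled points and exact 95% counting intervals on the deposited scale and open symbols for the 3 other scalings. All points lie to the left of 1, and with equal library totals the family moves from 0.485 to 0.586.

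The makeup of the family was compared next, since shares within a library need no scaling. mmu-miR-29a-3p gave 82.4% of the family's reads in WT (81.2 to 83.7%) and 84.8% in KO (83.0 to 86.4%). mmu-miR-29c-3p gave 10.2% (9.25 to 11.2%) and 8.55% (7.31 to 9.94%), and mmu-miR-29b-3p 4.04% (3.43 to 4.72%) and 3.97% (3.12 to 4.98%). The 3p products together gave 96.7% (96.1 to 97.2%) and 97.2% (96.4 to 97.9%). For each of these shares the intervals of the libraries overlap.

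The hairpins differed from each other in how much 5p product they held. The 5p share was 1.07% of miR-29a reads in WT (0.735 to 1.49%) and 0.711% in KO (0.355 to 1.27%). For miR-29c it was 11.3% (8.43 to 14.7%) and 13.0% (8.42 to 18.9%). For miR-29b, with both 5p copies summed, it was 21.9% (16.2 to 28.4%) and 18.2% (10.8 to 27.8%). In both libraries the share of miR-29a lay below the intervals of the other hairpins, and within each hairpin the WT and KO intervals overlap.

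Both arms of a hairpin come from 1 precursor, so their ratios were compared. On the log2 scale the 5p and 3p ratios were -1.59 and -1.005 for miR-29a, -1.07 and -1.30 for miR-29c, and -1.40 and -1.07 for miR-29b with both copies summed. The quotient of the arms, 5p over 3p, was 0.667 (0.302 to 1.35) for miR-29a, 1.17 (0.656 to 2.04) for miR-29c and 0.794 (0.389 to 1.56) for miR-29b, and each interval includes 1. Over 150 other hairpins whose arms each reached a mean of 10, the arms lay a median of 0.55 apart on the log2 scale. On the deposited scale both arms were at least 2-fold lower in KO in 5 hairpins, which was 3.29% of all measured this way, and miR-29a and miR-29c were among them. With equal totals neither was, since miR-29a-3p stood at 0.602 and miR-29c-5p at 0.575.

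**Figure D3:**
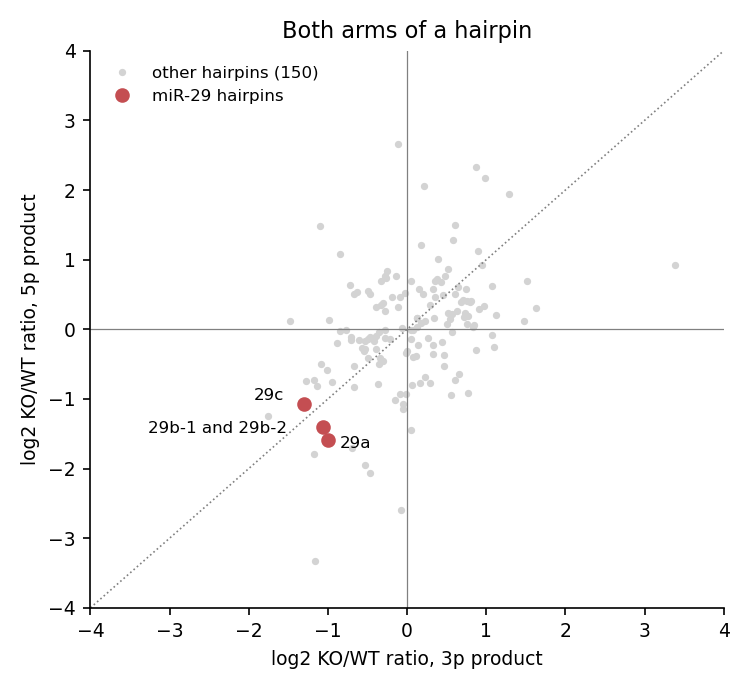
Each point is a hairpin, with the log2 KO/WT ratio of its 3p product on the horizontal axis and of its 5p product on the vertical axis, and the dotted line marks equal ratios. The miR-29 hairpins lie between -1.005 and -1.30 for 3p and between -1.07 and -1.59 for 5p, in the lower left among 150 other hairpins.

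Against all entries, 6 of the 7 members were at least 2-fold lower in KO, where 9.94% of 543 entries with a mean of at least 10 were. The exception was mmu-miR-29b-2-5p. Among the 6, mmu-miR-29b-1-5p, at 19.1 in WT and 4.0 in KO, reached the mean of 10 only through the WT library. Its place in this count and in the interval count below was thus partly set by that filter, and it adds no support. None was at least 2-fold higher, as 11.4% of entries were. The interval of the ratio lay below 1 for 6 of 7 members and for 29.7% of all entries. The median log2 ratio of the members was -1.07 (SD 0.47 over the 7 entries, which are not replicates), beside 0.02 over the 531 entries above 0 in both libraries.

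The members were also set beside entries of like abundance. Over the 136 mature entries that reached a mean of 1000 the median ratio was 0.913, and 80 were lower in KO. Of these, 10 stood at or below the ratio of mmu-miR-29a-3p, itself included. Among 310 with a mean of at least 100, 12 stood at or below mmu-miR-29c-3p and 24 at or below mmu-miR-29b-3p. The latter, at 150.4 in WT and 71.8 in KO, reached the mean of 100 only through the WT library. Its place among the 310 was thus partly set by that filter and adds no support. By level, mmu-miR-29a-3p ranked 84 of 1080 in WT and 116 in KO, mmu-miR-29c-3p 195 and 268, and mmu-miR-29b-3p 270 and 343.

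**Figure D4:**
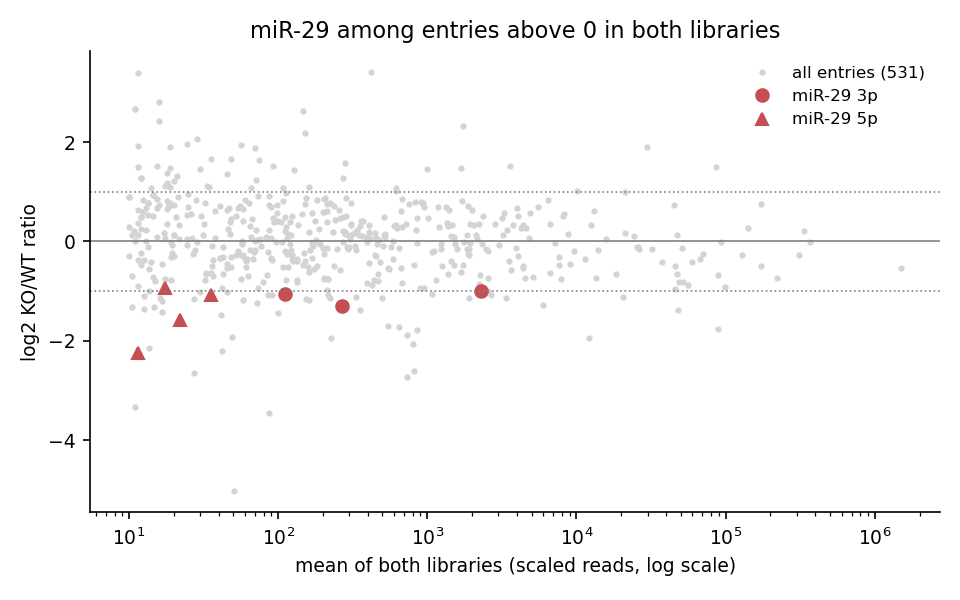
Each grey point is 1 of 531 entries, with the mean of both libraries on the horizontal log axis and the log2 KO/WT ratio on the vertical axis, and dotted lines mark 2-fold. The 7 miR-29 entries, in red, all lie below 0, with a median of -1.07.

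The scale between the libraries bears on these counts, because the KO library summed to 0.828 of the WT library. Equal totals raised every log2 ratio by 0.27, equal totals without miR-143-3p by 0.17, and centring the log2 ratios on the median of abundant entries, those with a mean of 100 or more, by 0.03. The family ratio became 0.586, 0.546 and 0.497. mmu-miR-29a-3p became 0.602, mmu-miR-29b-3p 0.577 and mmu-miR-29c-3p 0.490 with equal totals. At least 2-fold lower were then 3 of 7 members, mmu-miR-29c-3p, mmu-miR-29a-5p and mmu-miR-29b-1-5p, beside 5.34% of all entries. Of these, mmu-miR-29b-1-5p passed the minimum mean only through its WT value and adds no support. The interval stayed below 1 for 6 of 7 members, beside 19.5% of all entries.

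The miRNAs nearest to the family's ratio, among other mature entries with a mean of at least 1000, were miR-378d (1445.6 in WT and 694.2 in KO, ratio 0.480), let-7d-3p (3633.3 and 1708.2, 0.470) and miR-484 (3389.6 and 1704.2, 0.503). With 2 libraries, likeness here means only the distance between log2 ratios, which was 0.01, 0.04 and 0.05. miR-378d reached the mean of 1000 only through its WT value, so that filter had a part in its place here.

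Other miRNAs known to target enzymes of DNA methylation or demethylation, or the histone methyltransferase *Ezh2*, went both ways. Of 10 on that list, 6 were lower and 4 higher on the deposited scale, none by 2-fold, with a median log2 ratio of -0.15. Among all 543 entries with a mean of at least 10, 9.94% were at least 2-fold lower and 11.4% higher. With equal totals 3 were lower and 7 higher, with a median of 0.13, and without miR-143-3p in the totals 4 were lower and 6 higher. miR-148a-3p, known to target *Dnmt1*, was at 14116 in WT and 28004 in KO, a ratio of 1.98 (1.94 to 2.02) that became 2.40 with equal totals, and it was past 2-fold under each of the 3 other scalings. Its relatives miR-148b-3p and miR-152-3p stood at 1.09 (1.02 to 1.16) and 0.721 (0.674 to 0.771). miR-126a-3p, also tied to *Dnmt1*, stood at 1.27 (1.23 to 1.32). The miR-29 family relative to miR-148a-3p, miR-148b-3p and miR-152-3p summed gave a quotient of 0.278 (0.262 to 0.295). Among regulators of the other enzymes, miR-143-3p stood at 0.694, miR-26a-5p at 1.16 and miR-26b-5p at 0.748, while miR-101a-3p at 0.901 and miR-22-3p at 0.837 became 1.09 and 1.01 with equal totals.

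Of 15 miRNAs tied to the extracellular matrix and fibrosis, 14 were on the table, 5 lower and 9 higher in KO, with 2 at least 2-fold in each direction and a median log2 ratio of 0.20. With equal totals the directions were the same, 3 were at least 2-fold higher, beside 106 of the 543 entries, and the median was 0.48. miR-21a-5p, known to be high in fibrotic tissue, was at 6684 in WT and 13416 in KO, a ratio of 2.01 (1.95 to 2.07). miR-214-3p was at 896.5 and 2489, a ratio of 2.78 (2.57 to 3.0). miR-30c-5p and miR-133a-3p, which are known to restrain matrix genes as miR-29 does, stood at 0.381 (0.376 to 0.387) and 0.295 (0.292 to 0.298). miR-30a-5p and miR-145a-5p stood at 0.567 and 0.598, and above 1 were let-7i-5p at 1.09, miR-199b-3p at 1.13, miR-199a-5p at 1.18 and miR-192-5p at 1.79.

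Markers of smooth muscle and of other cell types differed between the same libraries. These lists share members with those above, so they are not separate observations. Of the matrix list, miR-133a-3p and miR-145a-5p are also smooth muscle markers, and miR-199a-5p, miR-199b-3p and miR-214-3p mesenchymal ones. Its miR-192-5p, miR-200b-3p, miR-200c-3p and miR-141-3p are also epithelial markers. Of the methylation list, miR-143-3p is also a smooth muscle marker and miR-126a-3p an endothelial one. All 8 smooth muscle miRNAs were lower in KO under each of the 4 scalings. Of the 136 mature entries averaging 1000 or more, 80 were lower on the deposited scale. On that scale 5 of the 8 smooth muscle miRNAs were at least 2-fold lower, beside 9.94% of the 543 entries tested. The median log2 ratio of the 8 was -1.16 and their summed ratio 0.652. With equal totals 3 of the 8 were at least 2-fold lower, beside 5.34% of the 543. The median of the 8 was then -0.89 and their summed ratio 0.788. The family relative to their sum gave a quotient of 0.744 (0.702 to 0.787), and relative to miR-143 and miR-145a 0.718 (0.678 to 0.759), so its reads were lower in KO beyond those sums as well. Most of that sum is miR-143-3p, at a ratio of 0.694 (0.692 to 0.695). Entry by entry, the median of the family on the deposited scale, -1.07, lay close to that of the smooth muscle list.

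Markers of most other cell types were higher in the KO library. All 9 leukocyte miRNAs were higher, their sum going from 18795 to 29152 (ratio 1.55), and all 4 red cell miRNAs on the table were higher, from 12745 to 47217 (3.70). Of the 4, miR-144-3p, at 2 in WT and 20.9 in KO, reached the mean of 10 only through the KO library and adds no support. The interval of miR-144-5p, 0.836 to 4.55, includes 1. Nearly all of the red cell sum was miR-486a-5p, at 12592 and 46756 (3.71). The largest part of the leukocyte sum was miR-146a-5p, at 11058 and 13890 (1.26), while the 9 ratios ran from 1.20 to 5.01. Both endothelial miRNAs summed to 10080 and 14282 (1.42), 4 mesenchymal miRNAs (of miR-199a, miR-199b and miR-214) to 24128 and 28823 (1.19). Most of the mesenchymal sum was miR-199b-3p, at a ratio of 1.13. The members of these lists were higher under each of the 4 scalings. The 8 epithelial miRNAs summed to 14503 and 18129 (1.25), with 4 lower and 4 higher on the deposited scale and all 8 higher with equal totals. The neural list, 3 lower and 2 higher on both scales, summed to 6847 and 5779 (0.844), and that ratio became 1.02 with equal totals. No marker on the table was at 0 in either library. The family relative to the leukocyte, endothelial and mesenchymal sums gave quotients of 0.313 (0.295 to 0.332), 0.342 (0.322 to 0.364) and 0.406 (0.383 to 0.431). miR-29 is made in many of these cell types, and the part of a different cell makeup in its ratio was not tested.

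**Figure D5:**
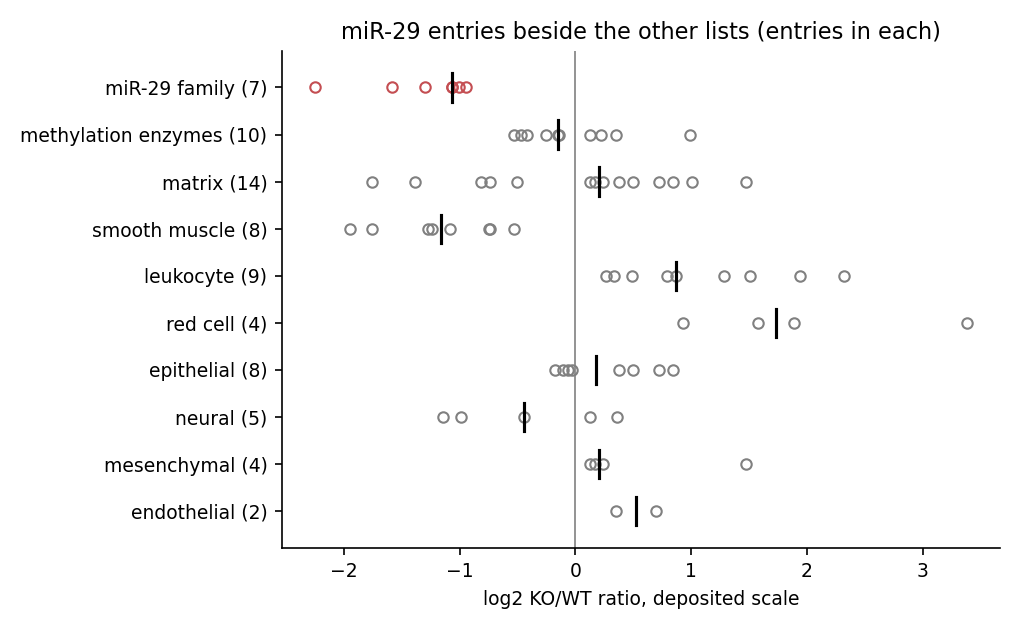
Each circle is an entry with a mean of at least 10, placed by its log2 KO/WT ratio on the deposited scale, with 1 line per list and a black bar at the median. The miR-29 entries (median -1.07) and the smooth muscle list (-1.16) lie below 0, and the leukocyte (0.87) and red cell (1.73) lists above it.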

How the data were processed

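MiRNAs were measured by small RNA sequencing of 1 *Dnmt1*-WT and 1 *Dnmt1*-KO library, grouped by the genotype label. The authors deposited 1 table of scaled read values, a score with 1 decimal. Bowtie and mm10 are named in the submitters' processing notes. The scaling, the release of the miRNA database and how multiply matching reads were counted are not given in the sources used here. Among the values from 20 to 300, 88.6% of 229 in WT and 91.1% of 248 in KO were whole multiples, within 0.06, of a step of 1.00285 and 0.99719, and dividing by the step gave implied reads (5725588 and 4768075 in all). The column with the authors' fold change was not used.

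Ratios carry no pseudocount. Their 95% interval is the exact (Clopper-Pearson) interval of the KO share of reads, quotients have the exact conditional interval of the odds ratio, and single values a Poisson interval. At this depth 3 reads are 5.24e-05% of the WT and 6.29e-05% of the KO library. A count model was not used because 1 library per genotype leaves no spread to estimate.

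Named were all miR-29 entries, members of the methylation and matrix lists with a mean of at least 1000 and the 3 other mature entries of that level nearest in ratio. The members and lists were chosen with earlier results of these data known. The 16 target genes and miR-3102-3p were added after the other choices. Alternatives were 3 other scalings, a pseudocount of 1, other arms, a split of miR-29b-3p and other minimum means. Gene models were GENCODE M21. Python 3.11.15, SciPy 1.17.1, NumPy 2.4.6, pandas 2.3.3 and matplotlib 3.10.9 were used.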

Additional observations from a re-analysis of the deposited data

How the results depend on the processing

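No paired analysis was possible because each genotype has 1 library, and leaving out a replicate was impossible for the same reason. With equal library totals the family stood at 0.586, the miR-29a/29b-1 cluster at 0.598 and the miR-29b-2/29c cluster at 0.506, and with equal totals without miR-143-3p the family stood at 0.546 and the miR-29a/29b-1 cluster at 0.557. The quotient of the clusters was 0.847, 0.930 with miR-29b-3p split by the 5p reads, 0.815 from miR-29a-3p and miR-29c-3p alone, and 1.71 from the 5p arms alone, where the cause was not tested. The ratios of the 7 single entries were recomputed under the 3 other scalings and with a pseudocount of 1. All 28 values stayed below 1, and 2, both of miR-29a-3p, left their main interval.

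The counts over all entries, 62 at least 2-fold higher and 54 lower, became 106 and 29 with equal totals, and 84 and 33 with equal totals without miR-143-3p. With no minimum mean 306 were higher and 265 lower, and with a minimum of 100 the counts were 20 and 28, because fewer entries are tested. Depth limits the 5p products most: mmu-miR-29b-1-5p rests on 19 and 4 reads.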
